A study of Pomacea canaliculata with 36 samples.

Results

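Lost genes restored by 6 days are genes of the eye stalk whose RNA was at 1/8 or less of its intact level 1 day after amputation. At day 6 it stood at 50% or more of that level. A gene was a member when its mean in intact stalks was at least 5 CPM (read counts scaled to library size, with TMM factors), its mean at 1 day post amputation (dpa) was at most 1/8 of that level, its mean at 6dpa was at least 50% of it, and its mean at 12dpa was above 50% of that at 9dpa. The rule held for 118 of the 21131 genes counted, 0.558% of all. It took in 16.3% of the 722 genes that fell at least 8-fold by 1dpa. Another 584 lost genes (80.9%) had not come back to 50% of Intact by 6dpa, and 20 (2.77%) had but lay at or below 50% of their 9dpa mean at 12dpa.

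The source was the eye stalk of *Pomacea canaliculata*, the apple snail, from which polyadenylated RNA was sequenced. The 36 libraries formed 9 groups of 4, namely unamputated stalks (Intact) and amputated stalks at 1, 3, 6, 9, 12, 15, 21 and 28dpa. No genotype, strain, age or agent is given for any group in the sources used here, and amputation was the only treatment named. The submitters' design text has day 7 where the library labels have day 6, and the labels were followed. Nothing in the labels says that the 4 libraries of a group are separate animals, so each p-value measures the spread between these libraries alone.

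The apple snail has a camera-type eye, with a cornea, a lens and a retina, at the tip of a stalk, and it can grow the eye anew after the stalk is cut. In animals that regenerate such organs, the wound is first closed by epithelium, cells then proliferate, and differentiated tissue forms last. Cutting the stalk removes whole cell types together with their RNA. In bulk RNA, fewer cells of a type and less RNA per cell cannot be told apart. The gene table used here pairs the locus identifiers with no product name, so no role is stated for any gene, and the labelled tissue could not be checked against its markers.

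Total counts lay between 21797015 and 32928737 per library, and 1 CPM stood for 19.2 counts in the smallest library. All 118 members passed the filter on low counts, as 17341 genes did. CPM is not corrected for gene length, so levels are compared between groups for 1 gene and never between genes.

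The members were low at 1dpa, partly back at 3dpa and at their later level by 6dpa, some way below Intact. In each library the median over the 118 members was taken of a gene's CPM as a percentage of its Intact mean. This median averaged 98.8 ± 4.48% in Intact (SD, n = 4) and 9.02 ± 1.00% at 1dpa. It then rose to 33.5 ± 2.16% at 3dpa and reached 78.3 ± 7.35% at 6dpa. The 9dpa libraries averaged 78.9 ± 3.27%, the 12dpa libraries 71.6 ± 6.67% and the 15dpa libraries 80.6 ± 3.77%. The last pair of groups stood at 85.8 ± 10.2% (21dpa) and 86.0 ± 9.98% (28dpa). The 4 libraries of 3dpa, at 30.5 to 35.4%, lay above every 1dpa library, at 7.61 to 9.86%, and below every 6dpa library, at 68.2 to 85.3%. From 6dpa to 28dpa the ranges of neighbouring time points overlapped. The values at 1dpa and 6dpa were fixed in part by the rule, and those at 9dpa and 12dpa entered it through their ratio. Those at 3, 15, 21 and 28dpa were not used by it.

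**Figure D1:**
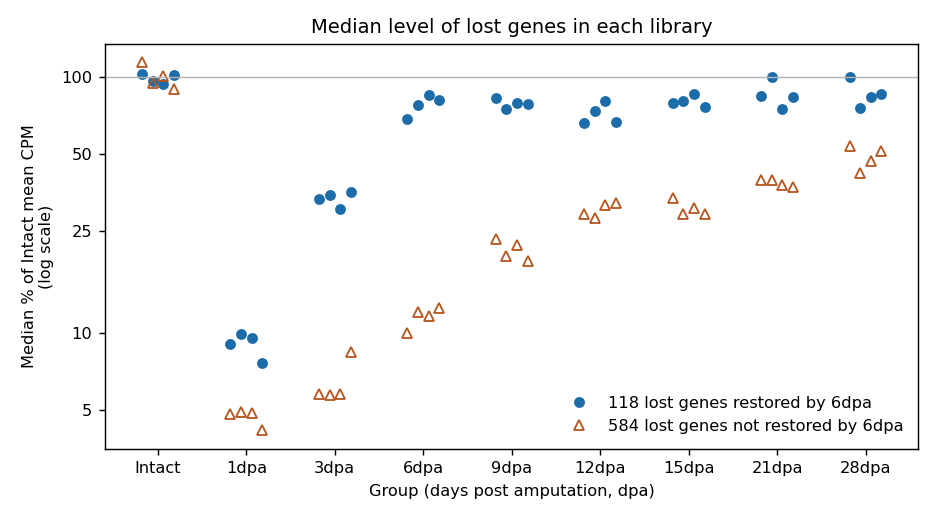
Median level of the lost genes in each library, as a percentage of the Intact mean CPM on a log axis, by group, with filled circles for the 118 restored genes and open triangles for the 584 genes not restored by 6dpa. The restored genes stand at 30.5 to 35.4% in the 3dpa libraries and at 68.2 to 85.3% in those of 6dpa.

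The members differed from each other in how much of their level was back at 3dpa. Their levels there ran from 4.85% to 250% of Intact, with a median of 35% and quartiles of 20.1% and 50%. At that time 38 members were under 25% of Intact, 50 lay from 25% to under 50%, and 30 were at 50% or more. By 28dpa the median was 84.6% of Intact, with quartiles of 72.9% and 109%, 112 of the 118 were at or above 50%, and 39 were above their Intact mean. Over the 17329 tested genes with a ratio to Intact, 16435 were at or above 50% at 28dpa and 8598 were above Intact, with a median of 99.8%. The lost genes not restored by 6dpa had fallen further, to a median of 4.95% of Intact at 1dpa against 9.45% in the members. Their median was 6.64% at 3dpa and 48.9% at 28dpa, and 287 of the 584 were at or above 50% at 28dpa. They were set apart by their 6dpa level, so part of this gap is fixed by the choice. After amputation 32 members had their highest mean at 28dpa, 27 had it at 6dpa and 21 had it at 21dpa. For 16 members 12dpa was the highest group, for 16 it was 15dpa and for 6 it was 9dpa.

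**Figure D2:**
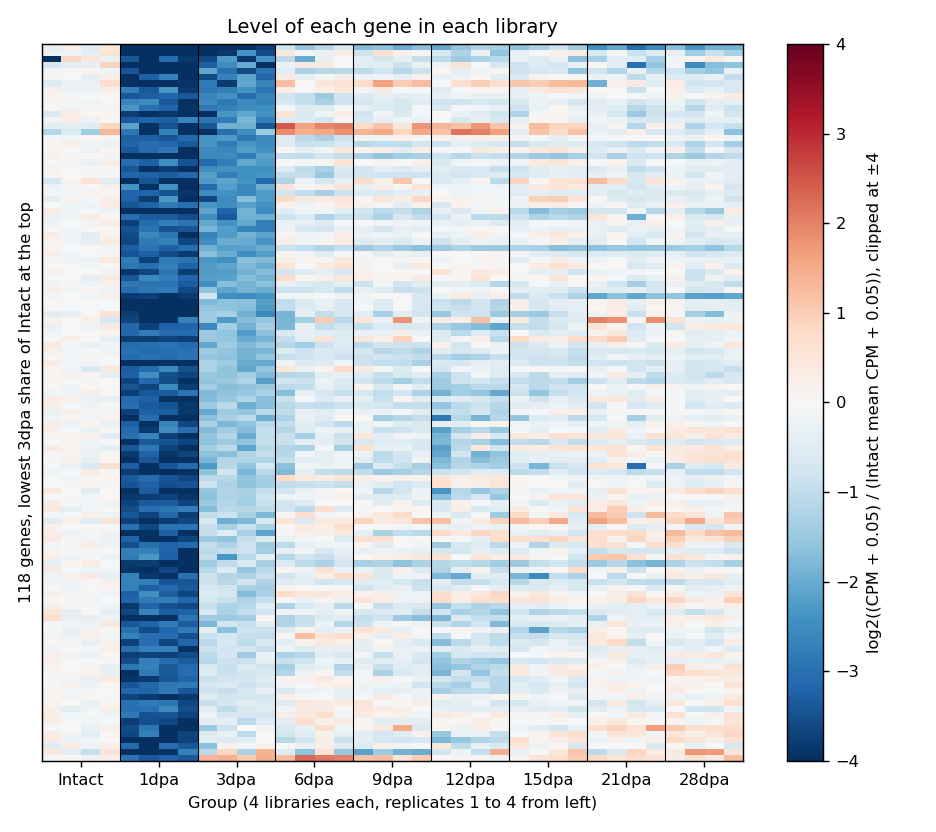
Level of each of the 118 genes (rows, lowest 3dpa share of Intact at the top) in each of the 36 libraries (columns, by group), as log2 of CPM over the Intact mean CPM. The 1dpa columns are low in every row, and the 3dpa columns go from low at the top to near or above Intact at the bottom.

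Because the whole set of values chose the members, the rule was also applied to part of the libraries and read in the others. On replicates 1 and 2 it chose 100 genes, and 56 of them (56%, exact 95% binomial interval 45.7 to 65.9%, over genes that are not independent) met it in replicates 3 and 4. In replicates 3 and 4, 72 of the 100 were lower at 1dpa by at least 8-fold, 95 by at least 4-fold, and 91 were at or above 50% of Intact at 6dpa. In those libraries they had a median of 9.92% of Intact at 1dpa, rising to 30.9% on day 3, 89.0% on day 6 and 85.6% on day 28. Chosen on replicates 3 and 4, 56 of 153 genes (36.6%) met the rule in replicates 1 and 2. These are the same 56 genes, those that met the rule in both sets of replicates, so this is no second check. Just inside the limit at 1dpa LOC112553961 stood at 12.45% of Intact, and just outside it LOC112571618 stood at 12.5%. At 6dpa LOC112573918 was inside at 50.15% and LOC112553707 outside at 49.9%. For 12dpa as a share of 9dpa LOC112571941 was inside at 50.25% and LOC112575930 outside at 48.53%, and for the Intact level LOC112558251 was inside at 5.126 CPM and LOC112554443 outside at 4.861 CPM.

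By the contrasts that the rule used, all 118 members were lower at 1dpa than in Intact (of the genes tested 76.9% were called, 37.2% higher and 39.7% lower) and all 118 were higher at 6dpa than at 1dpa (67.9% called, 35.6% higher and 32.3% lower). Against Intact 49 members were still lower and 5 higher at 6dpa (54.2% called, 28.2% higher and 26% lower), and between 9dpa and 12dpa 16 members were higher and 33 lower at 12dpa (29.2% called, 16.5% higher and 12.8% lower). Both counts of 118 only restate the choice of the members. For 6dpa against Intact and for 12dpa against 9dpa the rule set a lower limit alone, so those counts are fixed in part.

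The member with the most counts, LOC112573941, came back in steps. In Intact its 4 libraries held 558, 557, 666 and 643 CPM. The 1dpa libraries held 65.8, 65.2, 54.6 and 40.8 CPM. Day 3 gave 109, 112, 101 and 127 CPM, and day 6 gave 366, 306, 239 and 339 CPM. Every 3dpa library lay above every 1dpa library and below every 6dpa library. Its 1dpa and 6dpa values were among those that chose it. The level reached 568 ± 21.3 CPM at 12dpa (SD, n = 4), not called against Intact, and was 424 ± 32.0 CPM at 28dpa, with a log2 difference from Intact of -0.50 ± 0.108 (SE; adjusted p = 0.000715, edgeR).

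LOC112571434 came back by 6dpa but did not hold that level. Its Intact libraries held 159.7, 113, 122 and 111 CPM, those of 1dpa 3.26, 4.49, 5.98 and 3.85 CPM, and those of 6dpa 92.02, 110.1, 113 and 91.97 CPM. The Intact and 6dpa libraries overlapped, and the 1dpa libraries lay far below both. The mean was lower again on day 9, at 63.6 ± 8.80 CPM (log2 fold change against Intact -0.998 ± 0.273, adjusted p = 0.00364, edgeR). It was 111 ± 22.7 CPM on day 12, not called, and 48.5 ± 9.88 CPM on day 15 (log2 fold change -1.39 ± 0.276, adjusted p = 0.00013, edgeR). Its 28dpa libraries were spread from 44.8 to 154 CPM and overlapped those of Intact. LOC112553398 fell from 243 ± 19.2 CPM in the intact stalk to 22.7 ± 1.93 CPM after 1 day and had a mean of 319 ± 49.6 CPM on day 12. It was 1 of the 7 members called higher at 12dpa than in Intact (log2 fold change 0.40 ± 0.141, adjusted p = 0.0165, edgeR).

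Between 1dpa and 3dpa the members rose. Of the 118, 106 were called higher at 3dpa and 0 lower by edgeR's quasi-likelihood test. Of all genes tested 55.5% were called, 28.9% higher and 26.6% lower. The median log2 fold change was 2.13 in the members and 0.05 over all genes tested. Of the lost genes not restored by 6dpa, whose median share of Intact at 1dpa was lower, 215 of 584 were higher and 28 lower. The members had been picked for a low value in these 1dpa libraries, so this count is partly fixed by the choice. At 3dpa 112 members were still lower than in Intact and 1 was higher, beside 32.4% and 32.7% of all genes tested (65.1% called), with a median log2 fold change of -1.50. Every time point below is set against the same 4 Intact libraries, which also chose the members.

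LOC112571941 was the member called higher than Intact at 3dpa. Its Intact libraries held 93.5, 102, 82.6 and 114 CPM, and its 1dpa libraries 12.5, 9.58, 10.7 and 9.48 CPM. On day 3 they held 252, 260.2, 201 and 266 CPM, and on day 6 they held 238, 476, 424 and 392 CPM. Both the 3dpa and the 6dpa libraries lay above every Intact library. The log2 fold change at 3dpa against Intact was 1.34 ± 0.190 (adjusted p = 3.23e-07, edgeR). Its mean fell back to 99.1 ± 8.30 CPM at 12dpa. On day 28 it was 159 ± 49.9 CPM, above Intact by 0.71 ± 0.189 on the log2 scale (adjusted p = 0.00437, edgeR).

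Other members of high 3dpa share were not called against Intact at that time. LOC112553960 held 32.4, 21.6, 22.6 and 26.2 CPM in the Intact libraries, then 1.31, 1.13, 1.22 and 1.93 CPM at 1dpa, and 18.2, 17.7, 18.7 and 26.1 CPM on day 3. LOC112569755 averaged 5.96 ± 1.56 CPM in Intact, fell to 0.514 ± 0.219 CPM at 1dpa and was back at 5.26 ± 2.31 CPM by 3dpa. For both genes the Intact and 3dpa libraries overlapped. LOC112556193 was spread widely at 3dpa, at 5.90, 21.9, 5.15 and 32.8 CPM against 6.45 to 17.5 CPM in Intact (log2 fold change 0.42 ± 0.575, adjusted p = 0.531, edgeR), so its share there is poorly measured.

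At the other end, LOC112565749 had barely moved by 3dpa. Its Intact libraries held 18.8, 28.2, 17.1 and 31.3 CPM, those of 1dpa 1.09, 0.809, 0.861 and 0.625 CPM, and those of 3dpa 0.694, 0.877, 1.34 and 1.71 CPM. The 1dpa and 3dpa libraries overlapped, and the difference was not called (log2 fold change 0.52 ± 0.414, adjusted p = 0.303, edgeR). At 6dpa it was at 13.7, 8.13, 11.1 and 16.1 CPM, above every library of 3dpa. LOC112572580 held 15.98, 16.6, 14.1 and 27.3 CPM in Intact, between 0.926 and 3.58 CPM on day 3, and 24.6, 17.2, 15.3 and 22.1 CPM on day 6. Its 6dpa libraries overlapped the Intact ones, while its 3dpa libraries lay below them all.

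Some of the late members rest on uneven Intact libraries. LOC112577347 was at 0.194 CPM in Intact replicate 1 and at 11.2 to 23.7 CPM in the other 3. LOC112568514 was at 17.8 CPM in Intact replicate 4 and at 6.09 to 7.72 CPM in the others, and LOC112572425 at 26.6 CPM in that library and at 4.04 to 7.01 CPM in the others. LOC112565338 was at 8.98 CPM in Intact replicate 4 and at 3.84 to 4.58 CPM in the others, below the limit of 5 CPM. Without Intact replicate 4 neither LOC112565338 nor LOC112572425 met the rule. The mean over Intact, and with it the share regained, depends for all these genes on 1 library.

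**Figure D3:**
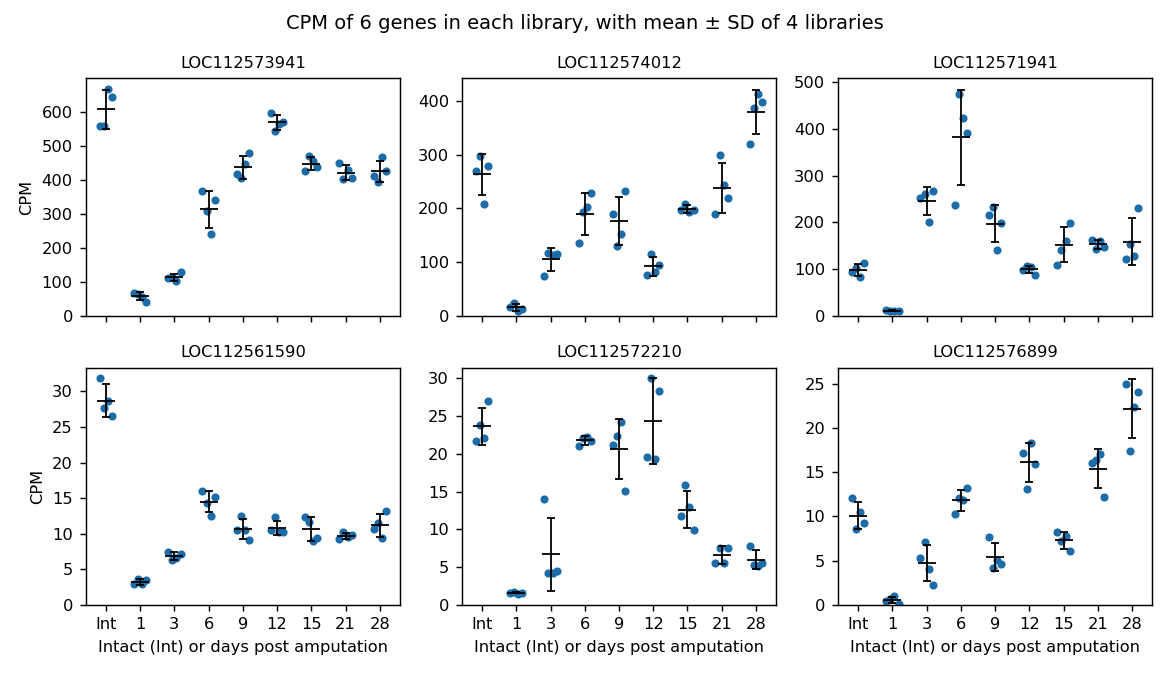
CPM of 6 members in each of the 36 libraries (points), with the mean ± SD of the 4 libraries of each group, in Intact and by day after amputation. LOC112571941 passes its Intact level by 3dpa, LOC112572210 declines again after 12dpa, and LOC112576899 reaches 17.4 to 24.9 CPM at 28dpa against 8.56 to 12.1 CPM in Intact.

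After 6dpa the members stayed somewhat below Intact. On day 9, 42 were lower and 4 higher than Intact, with a median log2 fold change of -0.31, and of all genes tested 42.4% were called, 22.1% higher and 20.4% lower. The 12dpa libraries had 60 members lower and 7 higher, with a median of -0.46 (56.0% of all genes called, 27.4% higher and 28.6% lower). On day 15, 40 were lower and 5 higher, with a median of -0.31 (44.8% of all called, 22.8% higher and 22.0% lower). By 21dpa 28 were lower and 8 higher, with a median of -0.16 (39.3% of all called, 20.6% higher and 18.7% lower). The share of members called, in order 39.0%, 56.8%, 38.1% and 30.5%, was near or below that of all genes tested, and most calls among the members were downward. Of the lost genes not restored by 6dpa, 547 of 584 were lower at 9dpa and 497 at 21dpa.

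At 28dpa 26 members were lower than in Intact and 9 higher (29.8% of all genes tested called, 14.9% in each direction). Of these, 6 falls and 2 rises were of at least 2-fold, beside 732 falls and 972 rises among the 17341 genes tested. The 35 calls became 22 without 28dpa replicate 2, with 5 higher and 17 lower, and 22 without 28dpa replicate 4, with 4 higher and 18 lower. Scaled by library size alone, 4 members were higher and 40 lower, so that 9.09% of the calls were upward in place of 25.7%. Under that scaling all genes tested had a median log2 fold change of -0.12 in place of 0.02 on day 28 against Intact. On day 21 it was -0.09 in place of 0.03, and for 3dpa against 1dpa it was 0.19 in place of 0.05. Of the lost genes not restored by 6dpa, 445 of 584 were still lower at 28dpa.

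**Figure D4:**
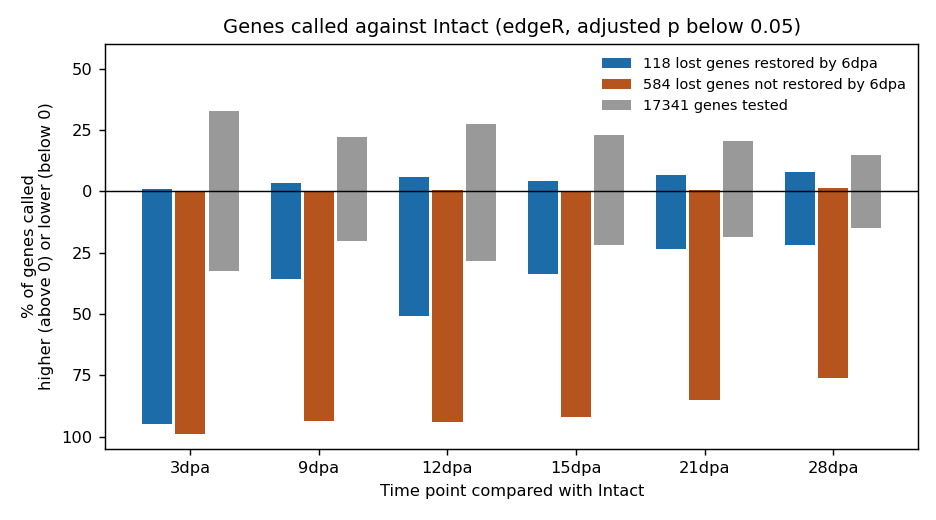
Share of genes called higher (above 0) or lower (below 0) than Intact at 3, 9, 12, 15, 21 and 28dpa (edgeR, adjusted p below 0.05), in the 118 members, the 584 lost genes not restored by 6dpa and the 17341 genes tested. The members go from 94.9% lower at 3dpa to 22.0% lower at 28dpa, beside 14.9% of all genes tested.

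The 3 members furthest below Intact at 28dpa took different courses to that point. LOC112572210 had come back in full, with 21.7, 23.8, 22.1 and 27.1 CPM in Intact and 21.1, 22.1, 22.3 and 21.6 CPM at 6dpa, and then fell away. By 15dpa it held 11.8, 15.9, 12.9 and 9.94 CPM and by 28dpa 7.84, 5.29, 5.14 and 5.53 CPM, below every Intact and every 6dpa library. Against Intact the log2 fold change at 28dpa was -1.97 ± 0.251 (adjusted p = 3.02e-07, edgeR), and against 15dpa it was -1.06 ± 0.254 (adjusted p = 0.00276, edgeR). LOC112565749 was highest after amputation at 6dpa, at 12.2 ± 3.43 CPM, and held 7.48, 4.68, 6.39 and 6.45 CPM at 28dpa (log2 fold change against Intact -1.91 ± 0.225, adjusted p = 7.28e-08, edgeR). LOC112561590 had returned to about its 50% limit and stayed there or lower, with 14.5 ± 1.49 CPM on day 6 and 9.70 ± 0.416 CPM on day 21, against 26.5 to 31.9 CPM in Intact. At 28dpa its libraries held 10.7, 11.5, 9.35 and 13.2 CPM, all below the Intact ones (log2 fold change -1.34 ± 0.115, adjusted p = 1.05e-10, edgeR).

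Of the members called above Intact at 28dpa, LOC112576899 had the largest log2 fold change. Its Intact libraries held 12.1, 8.56, 10.4 and 9.20 CPM, those of 1dpa 0.435, 0.606, 0.997 and 0.104 CPM, and those of 28dpa 24.9, 17.4, 22.4 and 24.1 CPM. All 28dpa libraries lay above all Intact libraries, and the log2 fold change was 1.16 ± 0.210 (adjusted p = 7.53e-05, edgeR). LOC112566423 had 5.66, 8.75, 5.53 and 10.6 CPM in the intact stalks and 14.5, 21.96, 10.9 and 15.2 CPM on day 28 (log2 fold change 1.05 ± 0.372, adjusted p = 0.0324, edgeR), a call lost when any 1 of 5 libraries was left out. LOC112561533 had 9.19, 6.90, 6.63 and 6.05 CPM in the intact stalks and 14.1, 9.43, 9.98 and 13.8 CPM on day 28 (log2 fold change 0.73 ± 0.220, adjusted p = 0.0113, edgeR). Without 28dpa replicate 1 that call was lost (adjusted p = 0.0513, edgeR).

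Between 15dpa and 28dpa 24 members rose and 9 fell. The rule did not use the means of these groups, though the scaling and the estimate of the spread came from all 36 libraries. Of all genes tested 23.6% were called, 11.4% as rises and 12.2% as falls, and the median log2 fold change was 0.12 in the members and 0.02 over all. Of the lost genes not restored by 6dpa 346 of 584 rose and 7 fell. The balance among the members turned with the scaling. By library size alone 16 rose and 20 fell, 44.4% of the calls upward in place of 72.7%, and the median of the members was -0.01 while that of all genes tested was -0.11. The 33 calls became 20 without 15dpa replicate 2 and 18 without 28dpa replicate 4.

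LOC112567365 rose most. It had been at 2.97, 1.80, 5.31 and 4.38 CPM at 15dpa and was at 14.4, 12.3, 14.2 and 8.25 CPM at 28dpa, with no overlap (log2 fold change 1.79 ± 0.370, adjusted p = 0.000632, edgeR). Its 28dpa level overlapped the 8.10 to 13.3 CPM of Intact. LOC112576899 rose by 1.62 ± 0.215 on the log2 scale (adjusted p = 1.80e-06, edgeR). In the other direction LOC112565338 went from 11.8, 10.97, 13.1 and 13.4 CPM to 6.83, 3.21, 3.25 and 3.56 CPM (log2 fold change -1.52 ± 0.326, adjusted p = 0.000894, edgeR). LOC112572425 was far above its usual Intact level in the middle of the course, at 39.7, 28.4, 31.2 and 37.6 CPM at 6dpa, and fell from 18.3 ± 7.22 CPM at 15dpa to 6.28 ± 2.17 CPM at 28dpa (log2 fold change -1.51 ± 0.453, adjusted p = 0.0154, edgeR). Without 28dpa replicate 4 it was not called (adjusted p = 0.0563, edgeR). Both LOC112565338 and LOC112572425 were members only with Intact replicate 4 included.

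Members with a higher level at 3dpa had higher ratios of 28dpa to 15dpa. The 38 members under 25% of Intact at 3dpa had a median ratio of 28dpa to 15dpa of 0.807. That ratio was 1.18 in the 50 members at 25% to under 50%, and 1.25 in the 30 at 50% or more. Over the 118 members, on log2 values, the 3dpa share of Intact and the ratio of 28dpa to 15dpa had a Pearson correlation of 0.48 and a Spearman correlation of 0.50. These are descriptions over genes that share all 36 libraries and are no independent points.

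**Figure D5:**
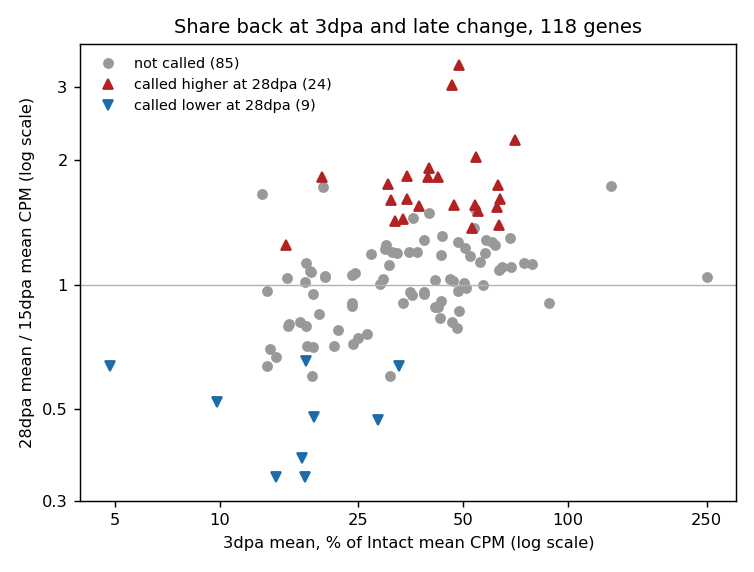
Ratio of the 28dpa mean to the 15dpa mean CPM against the 3dpa mean as a percentage of the Intact mean, both on log axes, for the 118 members, marked by their edgeR call between 15dpa and 28dpa. The 24 members called higher and the 9 called lower are marked, and the Pearson correlation of the log2 values is 0.48.

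The 12dpa libraries stood low for many members. The ratio of the 12dpa mean to the mean of 9dpa and 15dpa had a median of 0.857 in the members, with 77 of 118 below 1. In the lost genes not restored by 6dpa the median was 1.25, with 170 of 584 below 1. Over all genes tested it was 0.994, with 8839 of 17341 below 1. The rule had already removed the genes that fell most between 9dpa and 12dpa. Among the members LOC112574012 dipped clearly, with 190.0, 129.9, 153 and 232 CPM on day 9, only 75.3, 116, 81.6 and 95.2 CPM on day 12, and again 197, 209, 192 and 197 CPM on day 15. Every 12dpa library lay below every library of the time points beside it. By 28dpa LOC112574012 had reached 319.9, 387, 414 and 399 CPM, all above its Intact libraries of 208 to 298 CPM, though at a log2 fold change of 0.54 ± 0.211 it was not called (adjusted p = 0.05, edgeR).

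Some members were direct neighbours on the genome, in an order that holds only the protein-coding genes counted here. Any non-coding or uncounted genes between or across them were left out. In that order, from the assembly ASM307304v1, 26 of the 234 neighbouring places of members (11.1%) were taken by members. Over all genes 0.555% of such places were. In all, 25 members (21.2%) formed 12 runs of direct neighbours, 11 of 2 genes and 1 of 3. Lost genes not restored by 6dpa were also often neighbours, with 10.6% of their neighbouring places taken by genes of that set against 2.77% over all genes. Over the 7 group means from 3dpa on, the 14 pairs within runs had a median Pearson correlation of 0.97 between their log2 levels, against 0.61 over all 6903 pairs of members, and all points share the same libraries. Reads that fit several genes, or overlapping ones, may have been counted in ways that make neighbours alike, and their part was not tested. The spans of 22 of 117 members with a known place (18.8%) overlap another counted gene, against 22.1% of all counted genes. Overlapping genes lie in 2 of the 12 runs, LOC112574011 with LOC112574012 and LOC112553546 with LOC112554374.

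The largest group held 5 members within a stretch of 7 counted genes, LOC112574010, LOC112573763, LOC112574011, LOC112574012 and LOC112574009. The first, second and last of them were picked out here after their values had been seen. The 2 genes between them, LOC112573764 and LOC112573765, were not lost genes. All 5 dipped at 12dpa, to 32.9% of Intact in LOC112574010, 35.5% in LOC112573763, 35.4% in LOC112574011, 34.9% in LOC112574012 and 35.7% in LOC112574009. At 28dpa LOC112574010 was at 79.8% of Intact and the other 4 between 139% and 161%. LOC112574011, at 166, 129, 98.1 and 129 CPM in Intact and 168, 217, 244 and 209.9 CPM at 28dpa, was called higher (log2 fold change 0.70 ± 0.245, adjusted p = 0.0299, edgeR), a call lost when any 1 of 6 libraries was left out. The overlapping members LOC112553546 and LOC112554374 were alike in the libraries too. LOC112553546 had 428, 414, 438 and 438 CPM in Intact, then 21.5, 24.7, 17.6 and 17.5 CPM on day 1 and 469.8, 334, 334 and 322 CPM on day 28. LOC112554374 had 204, 187, 197 and 201 CPM in Intact, then 9.40, 10.7, 7.43 and 6.93 CPM on day 1 and 218, 146, 152 and 147 CPM on day 28. In both genes 28dpa replicate 1 was the highest of its group.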

How the data were processed

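The authors deposited 1 table of raw counts per gene for all 36 libraries. STAR is named in the submitters' processing notes. Its version, the gene models and their build, strandedness and the handling of multiply mapped reads were not given in the sources used here. All 21131 identifiers matched a RefSeq gene table (ASM307304v1), used for neighbours only, since it gives no product names. The 12 gene lists by product name therefore found 0 members, no sequences were at hand, and naming by protein identity could not be applied.

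Counts were analysed in R 4.3.3. CPM for the rule used TMM factors over genes with at least 10 counts in all. One edgeR 4.0.16 quasi-likelihood model (group means, robust, filterByExpr, 17341 genes) was fitted to all libraries, and 2-sided tests were adjusted by Benjamini-Hochberg over all genes tested, at a threshold of 0.05. SEs come from the F statistics. The fit was checked on simulated counts for 28dpa against 15dpa only, drawn from a model fitted to these data. Other comparisons were not checked in this way. Named members are the 8 of highest Intact CPM, the 4 of highest and 4 of lowest 3dpa share, and, among called members only, the 3 of largest log2 fold change in each direction in 28dpa against Intact and the 2 in 28dpa against 15dpa. The members and lists were chosen with earlier results of these data known. No pair of libraries agreed within sampling noise (lowest chi-square per degree of freedom 9.78 over 54 pairs). Alternatives were other scalings, filters, tools (DESeq2 1.42.0, limma 3.58.1) and thresholds, a replicate term, each library left out, and, added after the data had been seen, no 12dpa libraries.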

Additional observations from a re-analysis of the deposited data

Results flagged for a closer look

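The CPM of the 24 named members and the median over all members were examined in each of the 9 groups of 4 libraries, 225 sets of values in all, for 1 library far from the other 3 (Dixon's gap-to-range test), and 14 were found, all in single genes. Chance alone flags about 1 in 20 such groups. All values are CPM.

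In Intact, replicate 4 was high for 3 members, at 17.8 against 6.09 to 7.72 in the others for LOC112568514, at 8.98 against 3.84 to 4.58 for LOC112565338 and at 26.6 against 4.04 to 7.01 for LOC112572425. At 3dpa replicate 1 was low for LOC112574012, at 74.0 against 114 to 116, and high for LOC112572210, at 14.0 against 4.20 to 4.45. Replicate 4 of 3dpa was high for LOC112553960, at 26.1 against 17.7 to 18.7, and for the same gene replicate 3 of 6dpa was at 30.2 against 12.0 to 15.0.

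At 12dpa LOC112556193 was at 33.6 in replicate 4 against 6.33 to 10.7, and LOC112561590 was at 12.3 in replicate 2 against 10.2 to 10.5. At 21dpa LOC112569755 was at 3.98 in replicate 4 against 5.90 to 6.09. At 28dpa replicate 1 was high for 4 members, at 470 against 322 to 334 for LOC112553546, at 218 against 146 to 152 for its overlapping neighbour LOC112554374, at 7.84 against 5.14 to 5.53 for LOC112572210 and at 6.83 against 3.21 to 3.56 for LOC112565338.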

How the results depend on the processing

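With changes of 2-fold or more alone, members called against Intact fell to 14, 31, 11, 6 and 8 on days 9, 12, 15, 21 and 28, and to 9 between 15dpa and 28dpa. Of the 17341 genes tested, 1207 were then higher and 1416 lower on day 9, and 1556 and 2094 on day 12. The counts were 1415 and 1321 on day 15, 1182 and 981 on day 21, and 972 and 732 on day 28. Between 15dpa and 28dpa 538 of all genes rose and 355 fell by that much. The number of members was 539 with a loss of 4-fold or more, 21 with 16-fold or more and 63 with a return to 75%. With each library left out it lay between 103 and 135, and 56 of the 118 were kept every time. Without 1 library, members called were 99 to 107 between 1dpa and 3dpa and 18 to 32 between 15dpa and 28dpa. Against Intact they were 111 to 113 on day 3, 38 to 48 on day 9, 55 to 68 on day 12, 39 to 44 on day 15, 27 to 32 on day 21 and 22 to 35 on day 28. Shares over all genes are not given for these runs or for the replicate block below. Those counts show only how the number of members called varies. The same 56 genes met the rule in both sets of replicates. They were 56% of the genes chosen on replicates 1 and 2 and 36.6% of those chosen on replicates 3 and 4.

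The replicate numbers showed no general pairing of the libraries. Deviations of same-numbered libraries had a median correlation of -0.011, from -0.213 to 0.292, with 25 of 144 pairs over 0.1. A median over all pairs cannot tell whether some of the libraries were paired. With a replicate block the members called were 106 between 1dpa and 3dpa, then 113, 45, 66, 45, 35 and 36 at 3, 9, 12, 15, 21 and 28dpa against Intact, and 31 between 15dpa and 28dpa. Of 340 values of single genes under other settings 326 kept direction and call, 6 lost and 8 gained the call, and 0 changed direction. With 1 CPM worth 19.2 counts in the smallest library, members of low CPM rest on few counts at 1dpa.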
